A study of Homo sapiens with 16 samples.

Results

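The genes described here encode the core of the splicing machinery and the proteins that steer it. They are the protein-coding genes whose symbols begin with SNRP, SF3A, SF3B, LSM, SRSF or HNRNP, 75 of the 58051 genes in the deposited table: 27 HNRNP, 15 LSM, 12 SNRP, 12 SRSF, 6 SF3B and 3 SF3A genes. They were followed in P493-6, an immortalised human B cell line that carries a MYC transgene repressed by doxycycline and an Epstein-Barr virus EBNA2 protein that works only with estrogen. All 16 libraries come from this single line, grown in DMEM with 10% FBS, and fall into 4 groups of 4. High-MYC cells had no additive and medium-MYC cells received 0.1 µg/mL doxycycline and 1 µM beta-estradiol for 24 h beforehand; each was then given DMSO, the vehicle, or 100 nM IMP1088, which blocks the enzymes that attach myristate to proteins (NMT1 and NMT2), for 24 h. MYC level, doxycycline and estradiol change together between these groups, so their effects cannot be told apart. Nothing in the labels says that the 4 replicates of a group were separate cultures, so the p-values measure the spread between these libraries, which may be technical.

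Splicing is carried out on pre-mRNA by small nuclear ribonucleoproteins (snRNPs). Apart from that of U6, each of the main snRNPs holds a ring of Sm proteins wrapped around its RNA. Most SNRP genes encode these Sm proteins, while SNRPA and SNRPC encode U1 proteins and SNRPA1 and SNRPB2 encode U2 proteins. The related LSm proteins form a ring on U6 RNA in the nucleus and another on mRNA awaiting decay in the cytoplasm. SF3A and SF3B are parts of the U2 snRNP that settle it on the branch point; SR proteins (SRSF) mostly mark exons for inclusion, and hnRNP proteins coat the transcript and often favour skipping. MYC is known to raise the transcription of several of these genes, SRSF1 and HNRNPA1 among them, and PRMT5, an arginine methyltransferase that readies Sm proteins for ring assembly, is a known gene of the same kind.

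Libraries held 8755296 to 13858534 reads, if the whole numbers behind the deposited values are read counts. Values are the authors' normalized counts, and a change is given as a difference on the log2(value + 1) scale with its standard error from limma, called at a Benjamini-Hochberg adjusted p under 0.05 over the 13765 genes whose mean reached 10. MYC itself, the gene that was manipulated, had values of 34375, 32276, 30251 and 29693 in the high-MYC DMSO libraries and of 959.6, 904.1, 1022 and 948.6 in the medium-MYC ones, in the direction of the labels. With IMP1088 MYC was higher at both levels without overlap, at 46843, 47645, 48049 and 47631 in the high-MYC and 1400.4, 1444, 1328 and 1356 in the medium-MYC libraries, and its part in the inhibitor comparisons was not tested. All 10 B cell markers examined reached a mean of 10, as did 4 of 9 T and NK, 1 of 8 myeloid and 3 of 8 fibroblast and epithelial markers (ELANE, FCN1, DCN and KRT18 were at 0). The summed T and NK markers ran from 58.1 to 111 at high and from 177 to 274 at medium MYC, and the fibroblast and epithelial ones from 64.8 to 94.6 and from 225 to 316, against 36908 to 46086 and 58958 to 69233 for the B cell markers; the myeloid sum over all libraries ran from 41.4 to 84.4. Their part in the results was not tested. Exons of 29 of the 66 members that passed the filter described below overlap those of another gene, 12 on the same strand and 22 on the other, and the counting is not stated to use strand.

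Of the 75 genes, 66 passed the filter on low values. The 9 that did not were SNRPN, SRSF12, HNRNPLL, HNRNPCL1, HNRNPCL2, HNRNPCL3, HNRNPCL4, LSMEM1 and LSMEM2. SNRPN, an Sm protein gene, is listed at 0 in all 16 libraries, as is SNURF, which shares its exons on the same strand. The table does not show whether such a 0 means that there were no reads or that reads matching both genes were assigned to neither. HNRNPLL, which directs splicing of the lymphocyte surface phosphatase CD45, was listed at 0 in 7 of the 8 high-MYC libraries and at 0.873 in the other, against 1.04, 2.57, 2.63 and 4.10 in the medium-MYC DMSO libraries. The medium-MYC IMP1088 libraries had 0, 4.97, 2.09 and 4.03. No library held more than 5 recovered reads of it, so no fold is given. LSMEM1, a membrane protein that shares the prefix but is not an LSm protein, had 9.0 ± 2.05 with IMP1088 against 4.27 ± 2.10 with DMSO in high-MYC cells, and 9.91 ± 3.36 against 2.76 ± 1.44 in medium-MYC cells (SD, n = 4); its mean over all libraries was under the filter.

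RefSeq (GRCh38.p14) windows from 250 bases before to 50 bases after one start per gene were matched for 58 of the 66 members (no entry was found for HNRNPA1, HNRNPA1L3, LSM1, LSM14A, LSM6, SF3B3, SNRPD1 and SRSF2). RefSeq's start often lies inside the gene as GENCODE release 29 draws it: the 250 bases before it held bases of the gene's own exons for 48 of the 58 members, lay wholly inside the gene for 17, and held coding bases of SNRPE and SNRPG. So these are windows around a RefSeq start and not promoters for every member. The motif CCGGAAG, the core that ETS-family factors bind, was in 7 of 10 SNRP windows, all 3 SF3A, 3 of 5 SF3B, 2 of 10 LSM, 2 of 10 SRSF and 2 of 20 HNRNP windows. It was in 21.0% of the 9349 windows of tested genes and 10.7% of all 27305 windows, counting both strands. The E-box CACGTG, the sequence MYC binds with MAX, had another distribution: it was in 7 of 20 HNRNP windows and in that of SF3B1, and in none of the SNRP, LSM, SRSF or SF3A windows, against 10.5% of windows of tested genes and 7.44% of all windows. The motif lay before the gene's outermost GENCODE start, and outside every annotated exon, in 6 of the 19 members with CCGGAAG and in 2 of the 8 with CACGTG. Shown here are the 3 SNRP genes of the first kind and both members of the second, because the SNRP genes fell together at medium MYC, as described below, and the E-box is the sequence tied to MYC. Each is the run of bases around the motif that holds no annotated exon, 5′ to 3′ on the gene's strand, with the motif or its reverse complement in capitals.
SNRPA1: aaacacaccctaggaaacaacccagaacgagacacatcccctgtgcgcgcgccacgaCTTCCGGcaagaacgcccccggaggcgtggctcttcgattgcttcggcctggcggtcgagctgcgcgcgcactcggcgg
SNRPB2: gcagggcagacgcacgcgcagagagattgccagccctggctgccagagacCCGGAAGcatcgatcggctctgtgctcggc
SNRPC: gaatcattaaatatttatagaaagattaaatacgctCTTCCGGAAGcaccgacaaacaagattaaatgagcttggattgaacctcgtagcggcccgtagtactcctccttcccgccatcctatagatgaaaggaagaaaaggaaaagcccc
SF3B1: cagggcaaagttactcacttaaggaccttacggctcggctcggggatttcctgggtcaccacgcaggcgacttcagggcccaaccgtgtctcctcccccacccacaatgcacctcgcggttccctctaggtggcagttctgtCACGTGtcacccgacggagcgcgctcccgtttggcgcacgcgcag
HNRNPH2: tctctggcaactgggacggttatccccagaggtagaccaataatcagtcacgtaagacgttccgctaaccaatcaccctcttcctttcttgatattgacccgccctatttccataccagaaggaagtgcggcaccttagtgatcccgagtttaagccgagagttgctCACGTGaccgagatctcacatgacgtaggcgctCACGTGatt
They lie at chr15:101295283-101295418 (minus strand), chr20:16729881-16729960 (plus strand), chr6:34757255-34757405 (plus strand), chr2:197435092-197435278 (minus strand) and chrX:101408013-101408221 (plus strand). CCGGAAG or its reverse complement begins 79 bases before the outermost start of SNRPA1, 30 before that of SNRPB2, and 115 and 112 before that of SNRPC, where 2 matches overlap. The E-box begins 45 bases before the outermost start of SF3B1 and 115 and 82 before that of HNRNPH2. The string TATAAA, the core of the TATA box, was sought on both strands and at any position, so a match need not be a working TATA box. It was in 6 of the 58 windows, 10.3% against 5.54% of windows of tested genes and 11.95% of all windows. The palindromic NRF1 motif, searched without a mismatch, was in the window of LSM7 alone, against 2.39% of windows of tested genes and 1.36% of all.

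Between high and medium MYC in DMSO, the splicing genes mostly moved down, by modest amounts. A set of 66 members was tested and 61 were called, 12 higher and 49 lower at medium MYC, which is 92.4% against 76.2% of all genes tested; 74.2% of members were lower and 18.2% higher, against 37.3% and 38.9% of all genes. The median member changed by -0.28 and the median gene by 0.02. Genes with higher counts are called more often, and all tested members but HNRNPA1L2 and HNRNPA1L3 had means above 100. With the filter at a mean of 100, 7901 of 9604 genes were called, 3848 higher and 4053 lower, and 59 members, 12 higher and 47 lower. For the inhibitor comparisons below that filter gave 3163 of the 9604 genes at high and 3361 at medium MYC. Large changes were fewer than among genes in general: 11 members moved at least 1.5-fold, or 16.7% against 43% of all genes, and 1 moved at least 2-fold, against 24%. Those shares of all genes include genes with means from 10 to 100, and shares at the higher filter were not counted. Values of the groups did not overlap for 50 members, 75.8% against 69.2% of all genes. Together the 75 genes took 1.65% ± 0.064 (SD, n = 4) of a library's reads in high-MYC DMSO cells and 1.37% ± 0.054 (SD, n = 4) in medium-MYC DMSO cells. In bulk RNA, fewer cells of a state and less RNA per cell cannot be told apart, and values are relative to the library.

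**Figure D1:**
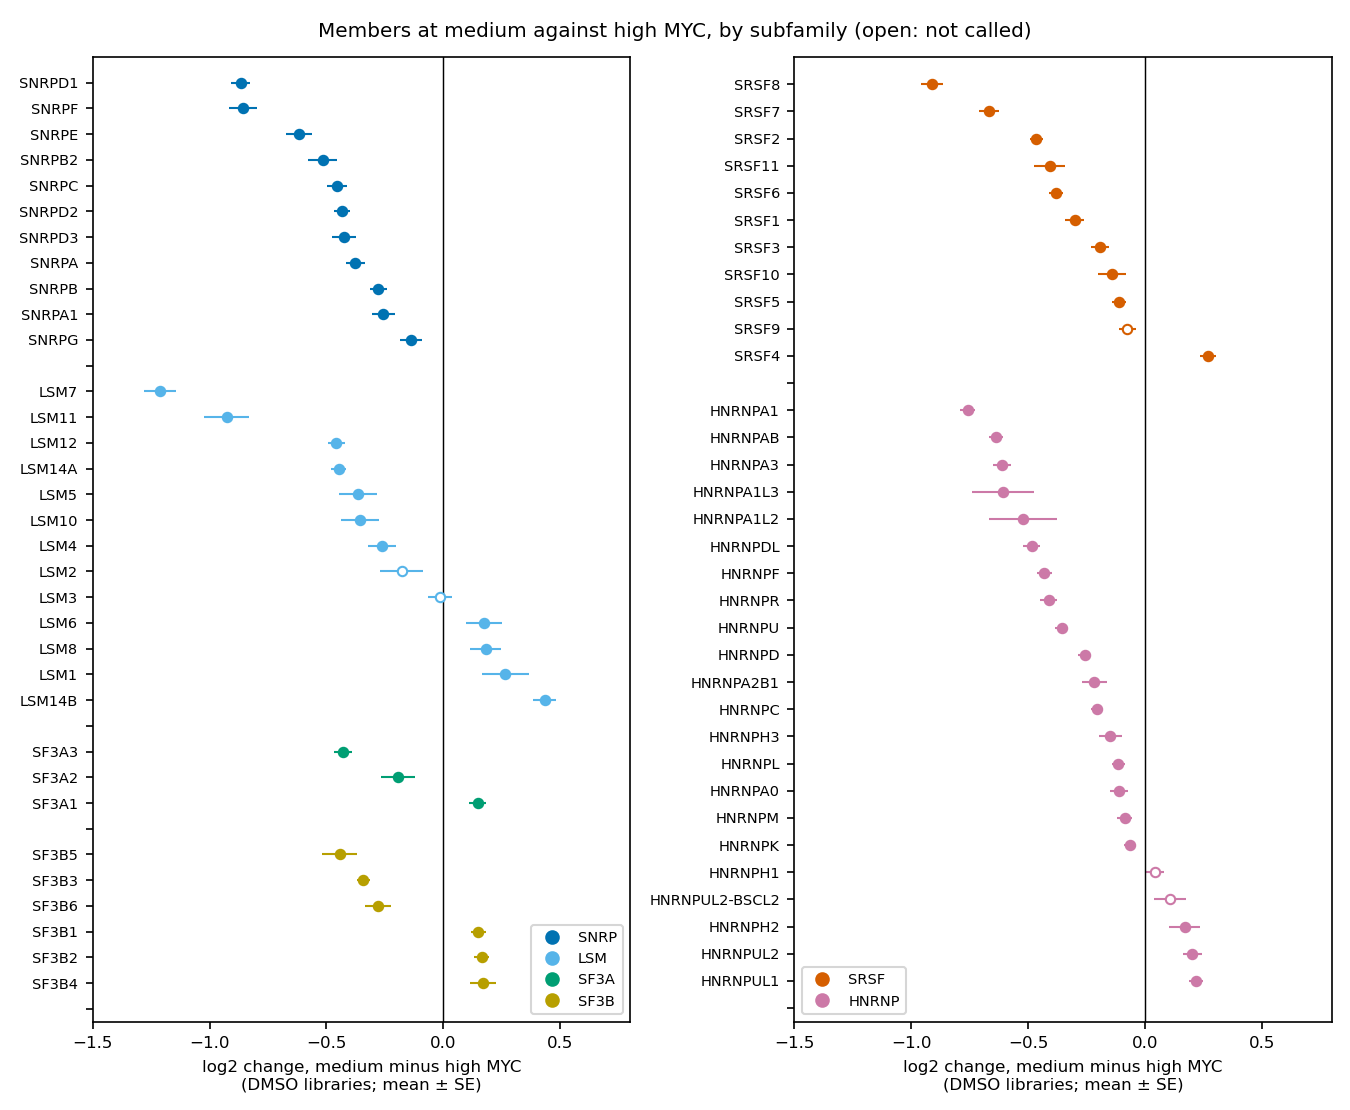
Change of each of the 66 members between medium and high MYC in the DMSO libraries (horizontal axis, log2 of value + 1, mean ± SE from limma), grouped by subfamily; open points were not called. All 11 SNRP genes lie left of 0, and SF3B genes split into 3 on either side; under quantile normalization HNRNPA2B1, HNRNPU and HNRNPK cross 0.

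The SNRP genes were the one subfamily in which every tested member fell: 11 of 11 were lower, with a median of -0.43 and a range of -0.87 to -0.14. Among the Sm ring genes the size of the fall differed although their products share a ring. SNRPD1 (GRCh38, chr18:21612267-21633524), which pairs with SNRPD2, had normalized counts of 1202, 1236, 1289 and 1246 in the high-MYC DMSO libraries and 651, 669, 696 and 711 in the medium-MYC ones. The groups were far apart, a change of -0.87 ± 0.040 (limma adjusted p = 1.28e-14). SNRPF, which joins SNRPE and SNRPG in the ring, went from 682, 687, 695 and 656 to 344, 384, 357 and 418. Its change was -0.86 ± 0.061 (limma adjusted p = 2.42e-11), though its exons overlap those of CCDC38 on the other strand and the counting is not stated to use strand. SNRPE was between 758 and 906 at high and between 496 and 577 at medium MYC, a change of -0.62 ± 0.056. The smaller falls were those of SNRPD2 (-0.43 ± 0.036), SNRPD3 (-0.43 ± 0.051), SNRPB (-0.28 ± 0.036) and SNRPG. On the same strand, exons of SNRPD3 overlap those of GGT1, and exons of SNRPB overlap those of another annotated gene. SNRPG, at 623, 695, 703 and 673 and 595, 605, 598 and 649, was the only Sm gene whose groups overlapped, with a change of -0.14 ± 0.049 (limma adjusted p = 0.0143).

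The Sm genes also differed in normalized counts per kilobase of exon, a value that depends on the exons annotated. SNRPB was the highest SNRP gene at high MYC in DMSO, with 1429 per kb against 907.7 for SNRPD2 and 223.5 for SNRPF. Lengths are those of all annotated exons together, 1.278 kb for SNRPB, 1.608 kb for SNRPD2 and 3.043 kb for SNRPF. Not divided by length, their means over the 16 libraries were closer, at 1646, 1263 and 548. SNRPB encodes both SmB and SmB'. The U1-specific SNRPA and SNRPC changed by -0.38 ± 0.041 and -0.45 ± 0.042, and the U2-specific SNRPA1 and SNRPB2, a pair that bind U2 RNA together, by -0.26 ± 0.048 and -0.52 ± 0.062. SNRPA went from 1276, 1279, 1285 and 1265 to 948, 964, 1039.7 and 983, a step wider than the spread in either group.

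**Figure D2:**
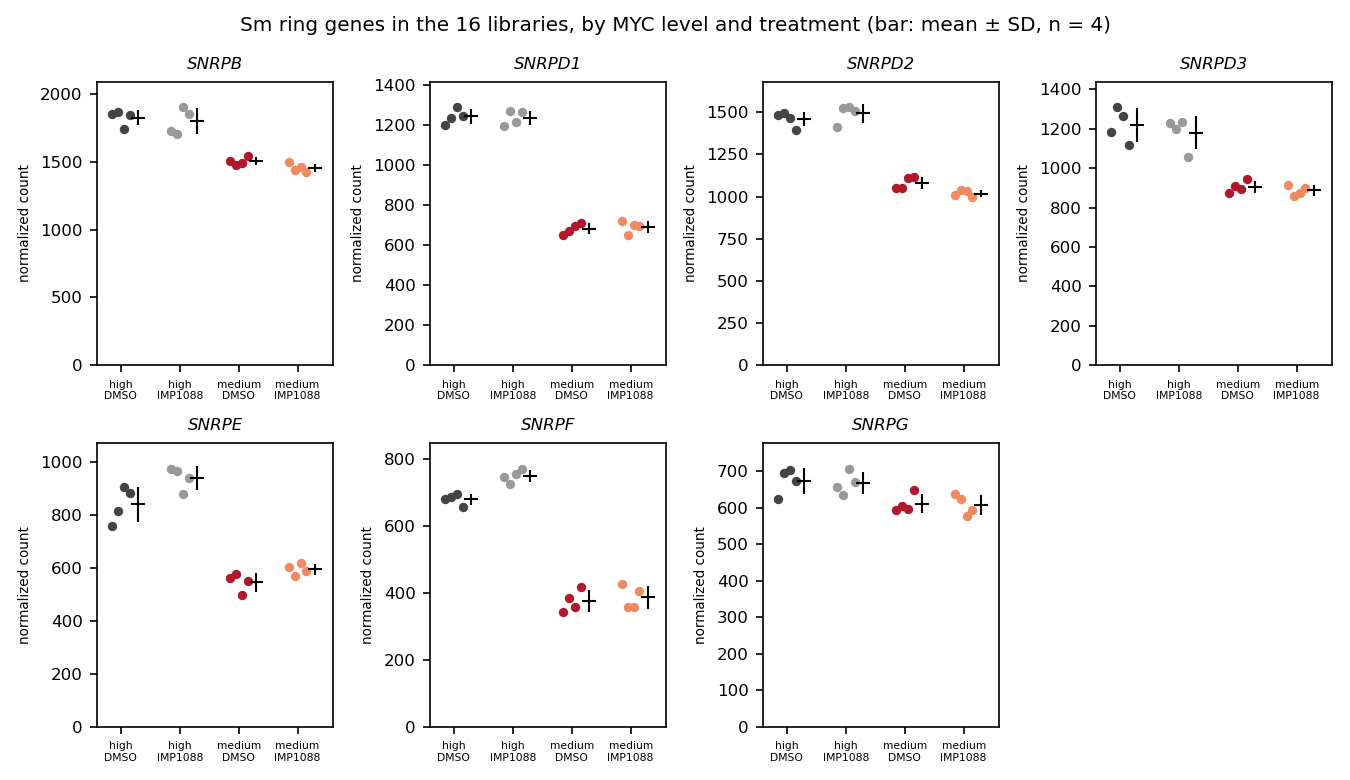
Normalized counts (vertical axes, from 0) of the 7 Sm ring genes in each of the 16 libraries, by MYC level and treatment; bars give mean ± SD of 4. SNRPD1, at 681.7 ± 26.7 against 1243 ± 35.8 in DMSO, and SNRPF fell furthest on the log2 scale, SNRPG least, and IMP1088 libraries lie close to their DMSO partners.

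The LSM genes went both ways. Of 13 tested, 4 were higher and 7 lower, with a median of -0.26; among the 8 ring genes (LSM1 to LSM8) 3 were higher and 3 lower, with a median of -0.10. LSM7 fell from 569, 532, 519.8 and 486 to 211, 212, 239.8 and 246, a change of -1.21 ± 0.069 (limma adjusted p = 5.11e-13) and 2.31-fold. It was the only member past 2-fold in DMSO; its exons overlap SPPL2B on the other strand. LSM5 (-0.37 ± 0.082) and LSM4 (-0.26 ± 0.060) also fell. LSM1, which marks the cytoplasmic decay ring, had 126, 155, 131 and 142 at high and 184, 162, 154 and 167 at medium MYC. That is 0.27 ± 0.10, with overlapping groups; the call (limma adjusted p = 0.0224) was held in 27 of 31 alternative fits. LSM8, which takes its place in the nuclear ring on U6, changed by 0.18 ± 0.066, and LSM6 by 0.17 ± 0.078 with a call held in 11 of 31 fits. LSM2 and LSM3, shared by both rings, were not called (-0.18 ± 0.092 and -0.01 ± 0.052).

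LSM10 and LSM11, which replace SNRPD1 and SNRPD2 in the ring of the U7 snRNP that trims histone transcripts, both fell. LSM11 went from 323, 307, 351 and 329 to 169, 183, 149.6 and 186, a change of -0.93 ± 0.098 (limma adjusted p = 1.78e-08), and LSM10 changed by -0.36 ± 0.081. The LSM14 paralogs, proteins of cytoplasmic P-bodies, parted: LSM14A fell by 0.45 on the log2 scale, and LSM14B rose from 339.7, 354, 322 and 343 to 476, 458, 429 and 476, the largest rise of any member (0.43 ± 0.050, limma adjusted p = 6.51e-08). LSM12 fell by 0.46 on the log2 scale; reads assigned to its pseudogenes came to 13.2% of its own, the largest such share among members.

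In the U2 parts, subunits of the same complex moved apart. Of 6 SF3B genes 3 were higher and 3 lower, with a median of -0.07, and of 3 SF3A genes 1 was higher and 2 lower, with a median of -0.20 that became -0.049 with GC correction. SF3B1, the large scaffold that holds the branch point, was 4824, 4971, 5311 and 5053 at high and 5732, 5717, 5331 and 5561 at medium MYC. The groups did not overlap and the change was 0.15 ± 0.032 (limma adjusted p = 0.000251), or 0.22 under quantile normalization. SF3B2 (0.16 ± 0.033) and SF3B4 (0.17 ± 0.056), which bind each other, rose, SF3B4 with overlapping groups. SF3B5, the smallest subunit gene, fell from 314, 330.2, 306 and 302 to 209, 224, 265 and 225 (-0.44 ± 0.075, limma adjusted p = 1.72e-05). SF3B3 (-0.34 ± 0.028) and SF3B6, which touches the branch-point adenosine (-0.28 ± 0.055), fell too. SF3A3 fell from 1606, 1572, 1635 and 1556 to 1154, 1161, 1237 and 1178 (-0.43 ± 0.037), SF3A2 changed by -0.20 ± 0.072 with a call held in 23 of 31 fits, and SF3A1 rose by 0.15 on the log2 scale.

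The SR protein genes mostly fell. Of 11 tested, 9 were lower and 1 higher, with a median of -0.30; SRSF9 was not called (-0.08 ± 0.036). The call of SRSF10 was held in 20 of 31 fits, its change being -0.092 without replicate 3 of the high-MYC and -0.088 without replicate 3 of the medium-MYC DMSO group. SRSF8 (GRCh38, chr11:95067197-95071224), a relative of SRSF2, went from 434, 460.4, 479 and 488 to 250.3, 251, 237 and 249. This was the largest fall of the subfamily, -0.91 ± 0.049 (limma adjusted p = 2.21e-13). SRSF7, which links splicing to mRNA export, had 1904, 2100.1, 2163 and 2112 and 1355, 1355, 1195 and 1303, a change of -0.67 ± 0.044. SRSF1, the founding SR protein, went from 4703, 5111, 5433 and 5272 to 4387, 4230.1, 3859 and 4177; the change was -0.30 ± 0.040 (limma adjusted p = 6.15e-07), and per kb of exon it was the highest SR gene in each group, 1536 at high and 1246 at medium MYC in DMSO. SRSF3 fell less, by 0.19 on the log2 scale. SRSF4 was the 1 that rose, from 1236, 1231, 1295 and 1229 to 1530.2, 1532, 1489 and 1459, without overlap (0.27 ± 0.034, limma adjusted p = 3.8e-07).

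**Figure D3:**
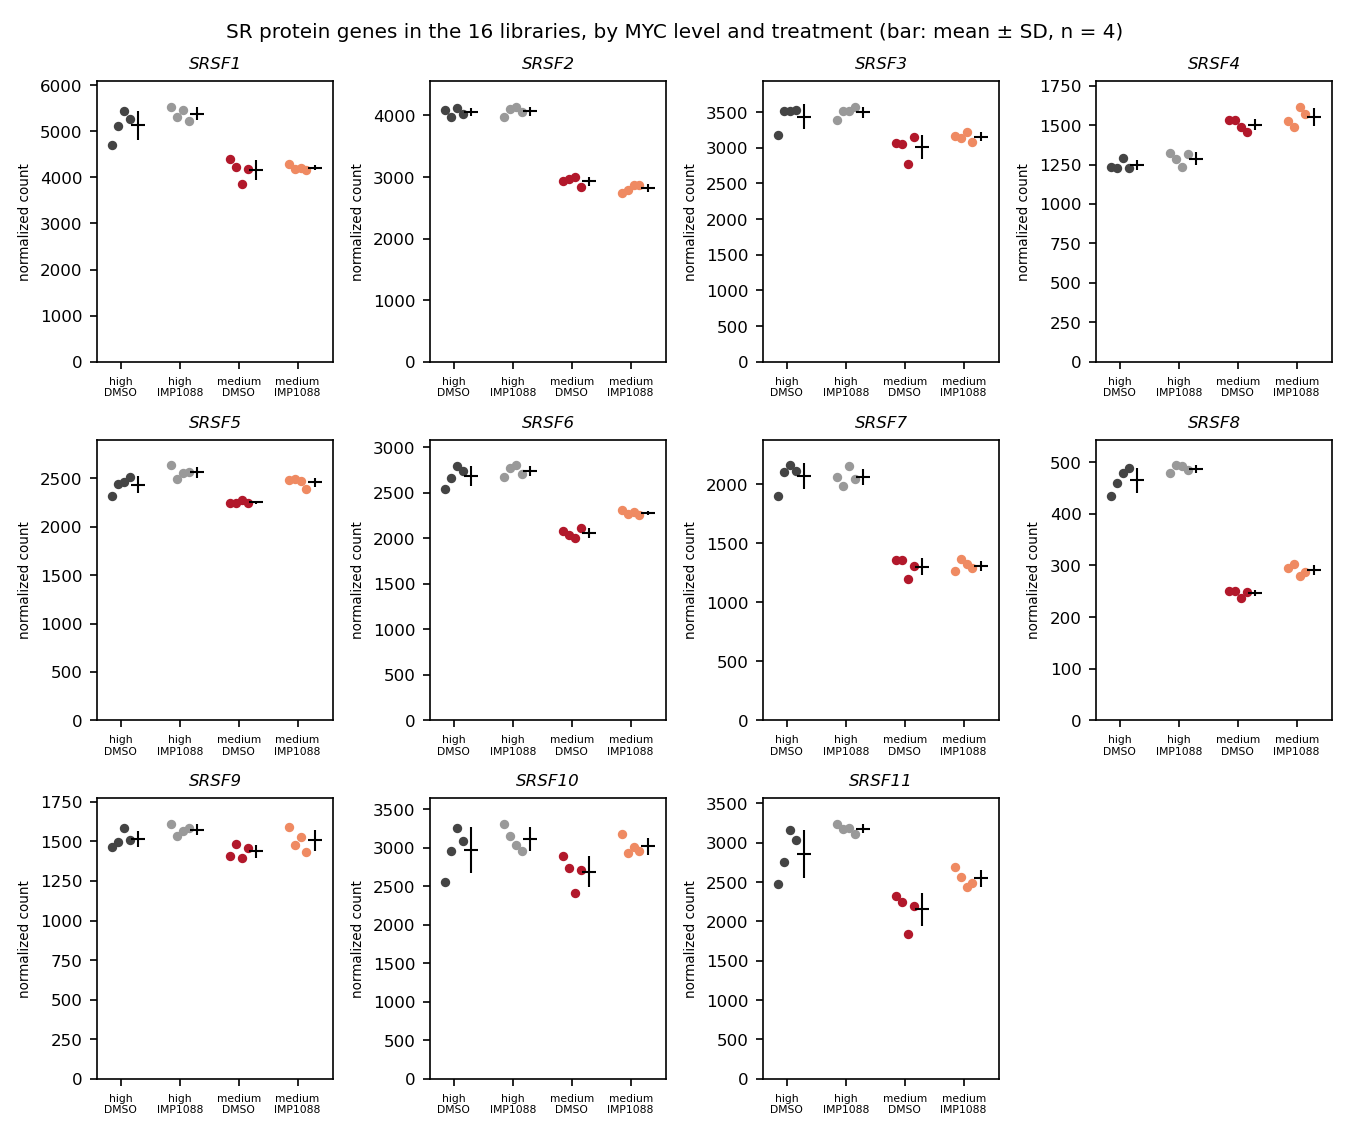
Normalized counts (vertical axes, from 0) of the 11 tested SR protein genes in each of the 16 libraries, by MYC level and treatment; bars give mean ± SD of 4. SRSF8 and SRSF7 differ most between MYC levels on the log2 scale, SRSF4 lies higher at medium MYC (1502 ± 35.1 against 1248 ± 31.4 in DMSO), and SRSF8 at medium MYC is higher with IMP1088.

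Among the hnRNP genes 17 of 22 were lower and 3 higher, with a median of -0.21 (-0.10 under quantile normalization), a split that became 13 lower and 5 higher under quantile normalization, where HNRNPA2B1, HNRNPU and HNRNPK changed sign. Under that normalization 5526 of all 13765 genes tested were lower and 5075 higher, against 5130 and 5355 in the main fit. HNRNPA1 (GRCh38, chr12:54280193-54287088), which competes with SR proteins at exons, was the most abundant member per kb of exon in every group, at 3238 at high and 1913 at medium MYC in DMSO. Its normalized counts were 15636, 16432, 17243 and 16661 at high and 10046, 9852, 9157 and 9912 at medium MYC, with no overlap, a change of -0.76 ± 0.032 (limma adjusted p = 2.32e-15), or -0.43 under quantile normalization. The A/B genes did not move as one. HNRNPAB and HNRNPA3 fell, at -0.64 ± 0.030 and -0.61 ± 0.039, HNRNPA0 fell less, at -0.11 ± 0.038, and HNRNPA2B1 changed by -0.22 ± 0.053 with overlapping groups, 10225, 10856, 12052 and 11562 against 10247, 10000.5, 8268 and 10016. Under quantile normalization HNRNPA2B1 had 0.12 (limma adjusted p = 0.105) and HNRNPK, at -0.07 in the main fit, was called higher at 0.11.

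HNRNPDL, HNRNPF and HNRNPR fell by 0.48, 0.43 and 0.41 on the log2 scale, HNRNPD by 0.26 and HNRNPC, the founding core protein of hnRNP particles, by 0.21. HNRNPH1, which binds G-runs, was not called (0.04 ± 0.039), and its paralog HNRNPH2 rose by 0.17 with overlapping groups. Exons of HNRNPH2 overlap those of RPL36A-HNRNPH2 on the same strand. The U-like HNRNPUL1 rose from 3239, 3160.2, 3037 and 3104 to 3562, 3566, 3895 and 3566 (0.22 ± 0.031, limma adjusted p = 1.78e-06), and HNRNPUL2 by 0.20, while HNRNPU itself had -0.36. HNRNPUL1 overlaps TGFB1 on the other strand, and HNRNPUL2 shares exons with the readthrough gene HNRNPUL2-BSCL2, which was not called (0.11 ± 0.068). HNRNPA1L2 and HNRNPA1L3, near-identical copies of HNRNPA1 at 100.5 ± 7.69 and 97.2 ± 5.91 (SD, n = 4) at high MYC in DMSO, changed by -0.52 ± 0.15 and -0.61 ± 0.13, and reads of HNRNPA1 could be split with them.

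The windows with an E-box did not group by direction. Of the 8 members with CACGTG, 5 were lower and 3 higher (HNRNPH2, HNRNPUL1 and SF3B1), with a median of -0.12 against -0.28 for the 50 without it. But 7 of the 8 are HNRNP genes, and the 50 include every SNRP and SRSF window. Over all tested members the medians were -0.21 for HNRNP, -0.43 for SNRP and -0.30 for SRSF. The split by E-box is thus also a split by subfamily, and the part of the E-box was not tested. Over all tested genes with a window the order was the other way: 48.3% of those with CACGTG were lower at medium MYC, with a median of -0.14, against 36.7% and 0.06 for those without. The 19 members with CCGGAAG had a median of -0.26, as had the 39 without. These 19 are 7 SNRP, 3 SF3A, 3 SF3B, 2 LSM, 2 SRSF and 2 HNRNP genes. This split is therefore uneven over the subfamilies too, and the part of the motif was not tested.

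In the presence of IMP1088 the MYC comparison, made on the other 8 libraries, gave 54 called members, 10 higher and 44 lower, or 81.8% against 77.5% of all genes tested (39.7% higher and 37.8% lower). Values did not overlap for 54 members, 81.8% against 72.6% of all genes; 8 moved at least 1.5-fold (44.8% of all genes) and 2 at least 2-fold (25.2%). All 54 called members had been called in the same direction in DMSO, and 7 members were called in DMSO alone, while all 11 SNRP genes were lower in both. The median was -0.27, and the changes of the 66 members in DMSO and in IMP1088 had r = 0.97 and rho = 0.96 across members, which share their libraries and are not independent replicates. LSM11 was further apart here, 330.1, 355, 319 and 356 against 128, 163, 124 and 176, a change of -1.21 ± 0.098, and it joined LSM7 (-1.15 ± 0.069) past 2-fold. In DMSO LSM11 had -0.93, and the difference between these changes was not called (limma adjusted p = 0.246). SNRPD1 and SNRPF changed by -0.84 ± 0.040 and -0.96 ± 0.061, and the SNRP median was -0.48. Under quantile normalization HNRNPA1 had -0.44 here, HNRNPC turned from a called -0.11 to 0.0061 (limma adjusted p = 0.846), HNRNPA2B1 from a called -0.18 to 0.10 (limma adjusted p = 0.158), and HNRNPK, not called at -0.03, was called higher at 0.12 (limma adjusted p = 0.000244). With GC correction SF3A2 had -0.0064.

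IMP1088 itself moved few members, and by little. At high MYC 12 of 66 were called, 6 higher and 6 lower, 18.2% against 26.8% of all genes tested, of which 10.5% were higher and 16.3% lower. For 12 members the DMSO and IMP1088 values were fully apart, against 26.7% of all genes. No member moved 1.5-fold, against 5.08% of all genes, and the median was close to 0. The balance of directions was not stable: it was 7 higher and 4 lower with equal library totals, 11 and 3 under quantile normalization, 5 and 8 with TMM factors, and 2 and 9 without replicate 1 of the high-MYC DMSO group. The balance of all genes tested moved as well. In the same order it was 1610 higher and 2003 lower, 1727 and 1770, 1314 and 2457, and 1212 and 2007. With no mean trend in the fit 7 members were called, and 3433 of all genes. LSM10 fell from 274, 273, 245 and 266 in DMSO to 209, 184, 230.4 and 225 with IMP1088, without overlap (-0.32 ± 0.081, limma adjusted p = 0.00484). LSM14B went from 339.7, 354, 322 and 343 to 285, 291, 294 and 300.4 (-0.21 ± 0.050, limma adjusted p = 0.0025). In DMSO this gene was higher at medium than at high MYC. HNRNPL, which represses exons through CA repeats, went from 4210.1, 4037, 4169.7 and 4132 to 3619.7, 3641, 3851 and 3677 (-0.16 ± 0.027, limma adjusted p = 0.000103).

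The other falls at high MYC were those of HNRNPUL1 (-0.11 ± 0.031, not called under quantile normalization at -0.066 or with GC correction at -0.050), HNRNPF (-0.10 ± 0.033) and HNRNPK (-0.06 ± 0.023), the last held in 12 of 31 fits. The rises were SNRPE (0.16 ± 0.056), SF3B6 (0.16 ± 0.055), SF3B3 (0.11 ± 0.028), SF3B1 (0.09 ± 0.032), HNRNPA0 (0.13 ± 0.038) and HNRNPA1 (0.13 ± 0.032). SF3B3 had 4424, 4181, 4293 and 4149 in DMSO and 4503, 4619.8, 4732 and 4598 with IMP1088, without overlap, and HNRNPA1 had 18190.1, 18319, 17962 and 17445 with IMP1088, each above every DMSO library at high MYC. SNRPE, SF3B6 and SF3B1 were held in 20, 22 and 15 of 31 fits. None of the 11 SRSF genes was called at high MYC in the main fit; among 31 alternative fits SRSF11 was called higher in 6, SRSF5 in 4 and SRSF9 in 1.

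At medium MYC 13 of 66 were called, 10 higher and 3 lower, 19.7% against 26.3% of all genes tested (11.7% higher and 14.6% lower), with no overlap for 17 members or 25.8% against 27.9%, and again none at 1.5-fold (3.78% of all genes). With GC correction the count was 18, 11 higher and 7 lower, against 3904 of all genes tested, 1818 higher and 2086 lower. Of the 10 rises, 5 were SR genes, 5 of 11 tested. SRSF8 went from 250.3, 251, 237 and 249 in DMSO to 295, 302, 279.9 and 286 with IMP1088, without overlap (0.24 ± 0.049, limma adjusted p = 0.000959). SRSF11 went from 2325, 2241, 1841 and 2196 to 2696, 2559, 2442 and 2483 (0.25 ± 0.066, limma adjusted p = 0.00715), replicate 3 of the DMSO group being the lowest. SRSF6 (0.15 ± 0.031), SRSF5 (0.13 ± 0.029) and SRSF10 (0.17 ± 0.060, a call held in 22 of 31 fits) were the others. SR genes are known to carry poison exons and retained introns that tune their own output, and per-gene counts do not separate those isoforms.

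The remaining rises were HNRNPA1, from 10046, 9852, 9157 and 9912 to 11515, 11135, 11327 and 11112 (0.21 ± 0.032, limma adjusted p = 2.73e-05), HNRNPA0 (0.15 ± 0.038), HNRNPC (0.11 ± 0.024), SF3B1 (0.12 ± 0.032) and LSM12 (0.12 ± 0.036). The falls were LSM4, from 499.6, 535, 588 and 517 to 467, 469, 403 and 429.5 (-0.27 ± 0.060, limma adjusted p = 0.00146), LSM14B (-0.18 ± 0.050) and HNRNPM (-0.12 ± 0.032). No SNRP gene was called. Members called at both MYC levels were HNRNPA0, HNRNPA1 and SF3B1, higher at both, and LSM14B, lower at both; 8 were called at high MYC alone and 9 at medium MYC alone.

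**Figure D4:**
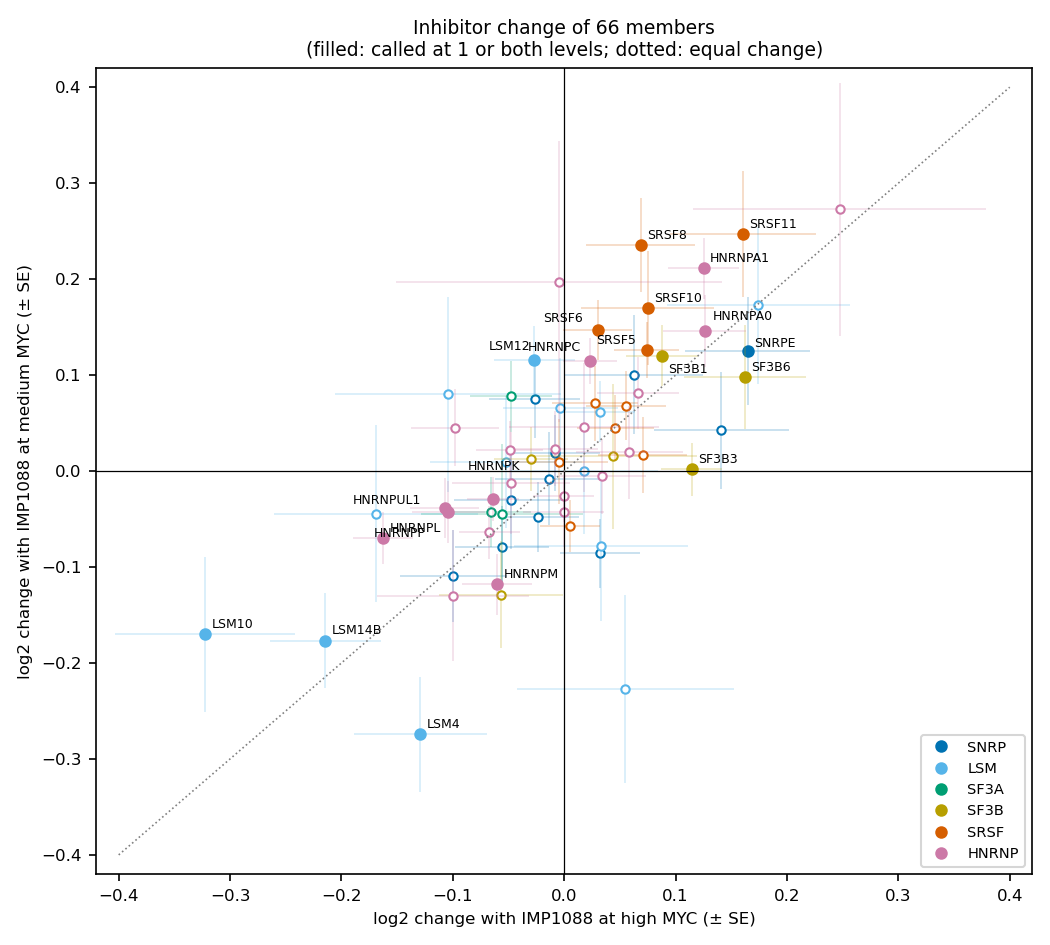
Change of each of the 66 members with IMP1088 at high MYC (horizontal axis) and at medium MYC (vertical axis), both in log2 of value + 1 ± SE; filled points were called at 1 or both levels and the dotted line marks equal change. Changes run from -0.32 to 0.25 at high and from -0.27 to 0.27 at medium MYC; SRSF8 and SRSF11 lie highest among the SR genes, and LSM10, LSM14B and LSM4 lie at the lower left.

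The difference between the responses, high minus medium MYC, was called for 0 of 66 members by limma (8.63% of all genes tested), and for 0 by edgeR and 0 by DESeq2. An unadjusted limma p under 0.05 was reached by 9 members. The share of all genes at that threshold was not counted, so the 9 cannot be set against genes in general. The smallest adjusted p was 0.0808, for SF3B3, whose difference was 0.11 ± 0.039. Members are poorer in GC than genes in general. The median GC of a gene's longest annotated transcript was 44.1% against 48.1%, and 40.7% in SRSF genes. The difference of SF3B3 and of SRSF6 was called with GC correction and without replicate 1 of the high-MYC DMSO group. That of SF3A3 was called without replicate 4 of the medium-MYC IMP1088 group. So the calls in 5 SR genes at medium MYC and in none at high MYC do not show that the responses differ: the differences were -0.17 ± 0.070 for SRSF8, -0.12 ± 0.044 for SRSF6, -0.09 ± 0.093 for SRSF11, -0.09 ± 0.084 for SRSF10 and -0.05 ± 0.041 for SRSF5. The largest in size was that of LSM11, 0.28 ± 0.14. Differences ranged from -0.20 to 0.28.

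Around these genes, other splicing factors, arranged in lists, give the comparison at medium against high MYC in DMSO, where 38.9% of all genes tested were higher and 37.3% lower. The snRNP assembly genes (the SMN complex that loads Sm rings and the methylosome that prepares them) had 15 of 20 lower and 1 higher, with a median of -0.71. GEMIN5, which reads the snRNA, went from 2293 ± 59.2 to 468.3 ± 6.92 (SD, n = 4), a change of -2.29 ± 0.032 (limma adjusted p = 2.67e-23), and PRMT5 from 1371 ± 47.6 to 570.7 ± 20.6 (-1.26 ± 0.038). GEMIN7 was the 1 higher (0.34 ± 0.081). SMN1 and SMN2 are near-identical and their reads cannot be told apart with certainty. Of the U snRNP-specific and tri-snRNP genes 10 of 18 were lower and 4 higher, with SNU13, which binds U4 RNA, at -1.39 ± 0.047 and PRPF6 at 0.41 ± 0.046. Of the U2 auxiliary genes 9 of 15 were lower and 3 higher, led by U2SURP (-0.73 ± 0.043) and, upward, RBM5 (0.71 ± 0.030).

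The minor spliceosome, which removes the rare U12 introns, had 7 of 12 higher and 2 lower, with a median of 0.23, ARMC7 at 0.83 ± 0.12, ZRSR2 at 0.39 ± 0.11 and PDCD7 at -0.26 ± 0.053. PRP19-complex and helicase genes had 10 of 26 higher and 5 lower, or 38.5% and 19.2%, and SR kinases and related factors 8 of 19 and 6, or 42.1% and 31.6%; the shares that were higher are near that of all genes. In the last list SRPK1, which phosphorylates SR proteins in the cytoplasm, fell from 2860 ± 132 to 1284 ± 26.1 (-1.15 ± 0.034, limma adjusted p = 4.65e-18), TNPO3, which imports them, rose (0.49 ± 0.035), as did the nuclear kinase CLK1 (0.20 ± 0.046). CLK1 rose with IMP1088 at medium MYC too (0.33 ± 0.046, limma adjusted p = 1.27e-05). Of hnRNP proteins under other symbols 11 of 20 were lower and 4 higher, with SYNCRIP at -1.28 ± 0.044, RALY at 0.49 ± 0.041 and PTBP1 at -0.13 ± 0.041, and of exon junction and nonsense-mediated decay genes 9 of 15 were lower and 3 higher.

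**Figure D5:**
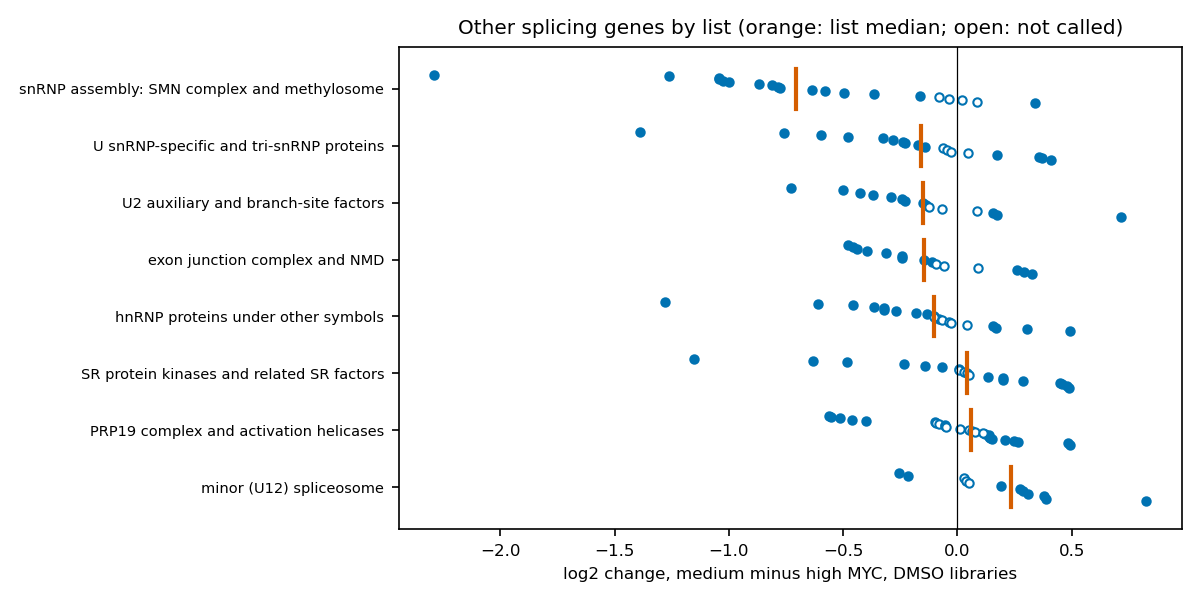
Change of genes in 8 lists of other splicing factors between medium and high MYC in the DMSO libraries (horizontal axis, log2 of value + 1); each point is a gene, open points were not called, orange bars are list medians. The snRNP assembly list lies furthest left, with a median of -0.71 and GEMIN5 at -2.29, and the minor spliceosome list furthest right, with a median of 0.23.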

How the data were processed

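RNA from 16 libraries of P493-6 cells was measured. The authors deposited a table of normalized counts, a signal per gene and library; per the submitters' processing notes STAR 2.5.2a, RSEM 1.2.31 and DESeq2 1.16.1 were used with GRCh38, in roles not given in the sources used here. Each deposited value was a whole number divided by a library factor (100% of values within 0.001 of whole). These whole numbers were taken as reads and are called recovered reads here. They came to 8755296 to 13858534 per library, with factors from 0.858 to 1.33. Whether they are read counts or rounded estimates is not stated. Without molecular identifiers the reads need not be separate molecules, and precision is lower for genes with few reads.

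The members and lists were chosen with earlier results of these data known. Of 58051 identifiers 56948 matched a symbol and 57447 a GENCODE release 29 gene; 209 rows with the prefixes that are not protein-coding, mostly pseudogenes, were left out. Fits used limma 3.58.1 in R 4.3.3, with a mean trend, on log2(value + 1) of the 13765 genes whose mean reached 10, all 16 libraries in one fit with 4 group means and Benjamini-Hochberg adjustment over all genes (two-sided). A pseudocount understates changes of low genes. Tests on recovered reads with edgeR 4.0.16 and DESeq2 1.42.0 were alternatives, with other scalings, filters, pseudocounts, a GC correction, a replicate block and each library left out. The fits were tested on simulated data. Members with full values were, per subfamily, up to 2 called in each direction with the largest MYC change and a mean of at least 50, up to 4 in each direction for the inhibitor, and SRSF1, SRSF3, HNRNPA1, HNRNPA2B1, SF3B1, SNRPB, SNRPN, SNRPD1 and SNRPD3; other members are given by their change. List genes were up to 2 in each direction and PTBP1, PRMT5, SRPK1 and CLK1. Sequence windows are RefSeq's and were set against GENCODE exons; bases after the start matched a GENCODE transcript of the gene in sense for 51 of 58 members and in antisense for 0. Replicates of a group differed beyond sampling noise (chi-square per degree of freedom of 1.73 to 11.1).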

Additional observations from a re-analysis of the deposited data

Results flagged for a closer look

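In groups of 4 libraries a value is listed here when its gap to the nearest other exceeds Dixon's 95% critical share of the range. Of 140 groups checked 12 held such a value, where chance gives about 1 in 20. Replicate 3 of the medium-MYC DMSO group held 6 of them: HNRNPUL1 at 3895, SF3B4 at 790.3 and LSM10 at 229.3 were its highest-of-group values, and SRSF8 at 237.2, HNRNPA0 at 1601 and HNRNPA2B1 at 8268 its lowest. This library also had the lowest share of reads from the 75 genes in its group, 1.29% against 1.38% to 1.42%. Replicate 3 of the high-MYC DMSO group had SRSF4 at 1295 as the highest and LSM4 at 577.2 and SNRPB at 1742 as the lowest values. SRSF3 was lowest at 3178 in replicate 1 of the high-MYC DMSO group, which had the lowest share of member reads there, 1.58% against 1.63% to 1.72%. SF3A3 was lowest at 1509 in replicate 4 of the high-MYC IMP1088 group, and HNRNPA0 at 1818 in replicate 2 of the medium-MYC IMP1088 group.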

How the results depend on the processing

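Called members ran from 57 to 62 for MYC level in DMSO and from 49 to 57 with IMP1088 over all alternatives, from 7 to 15 for the inhibitor at high MYC (7 without the mean trend) and from 11 to 18 at medium MYC. The difference in response gave 2 calls with GC correction, 1 with GC correction and the replicate block, 0 to 2 with 1 library left out, and 3 (SRSF6, LSM12 and SF3B3) with replicate 1 of the high-MYC and replicate 3 of the medium-MYC DMSO group both left out, an alternative chosen after seeing the data because these have the lowest member shares; the fit on compared groups only gives no value for it. HNRNPA2B1 reversed under quantile normalization, to 0.12 in DMSO and 0.10 with IMP1088, where HNRNPC also changed sign to 0.0061 and HNRNPK to 0.12. The cause of these changes was not tested. Subfamily medians that moved were as follows. With GC correction, with or without the block, the medium against high MYC medians were -0.17 (HNRNP), -0.30 (LSM) and -0.049 (SF3A) in DMSO and -0.26 (LSM), -0.0064 (SF3A) and -0.42 (SNRP) with IMP1088, and SF3A had 0.072 for the inhibitor at medium MYC. TMM factors gave -0.46 for SNRP in DMSO, and a filter at a mean of 100 gave -0.18 for HNRNP. Quantile normalization gave -0.10 for HNRNP at both treatments, and 0.0094 (LSM) and 0.025 (SNRP) for the inhibitor at high MYC. Without both doubted libraries HNRNP had -0.041 for the inhibitor at high MYC, LSM -0.30 for MYC level in DMSO, SF3A 0.031 and SF3B 0.058 for the inhibitor at medium MYC, and SF3B 0.0050 for the difference. With 1 library left out at a time, medians for MYC level in DMSO ran from -0.24 to -0.17 (HNRNP), -0.31 to -0.23 (LSM), -0.27 to -0.14 (SF3A) and -0.46 to -0.42 (SNRP), and with IMP1088 from -0.27 to -0.15 (LSM) and -0.49 to -0.44 (SNRP). For the inhibitor they ran from -0.041 to 0.023 (HNRNP, high MYC), and at medium MYC from -0.062 to 0.031 (SF3A), -0.0004 to 0.058 (SF3B) and -0.031 to 0.021 (SNRP). For the difference they ran from -0.060 to 0.012 (HNRNP), -0.087 to -0.0037 (SF3A), 0.0061 to 0.077 (SF3B) and -0.020 to 0.020 (SNRP). With the replicate number as a block 59, 54, 10 and 12 members were called in the MYC and inhibitor comparisons and 0 for the difference; same-numbered libraries did not deviate together (mean correlations of 0.024, -0.018, -0.072 and -0.024), so the numbers were not treated as pairs. The standard errors were largest for HNRNPA1L2 and HNRNPA1L3, at 0.15 and 0.13.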
